A study of Sus scrofa with 60 samples.

Results

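The genes described here are 8 members of the interleukin 6 (IL-6) receptor system, namely the receptors CNTFR, IL6R, LIFR, and OSMR, the shared receptor chain IL6ST, the kinase JAK1, the transcription factor STAT3, and the inhibitor SOCS3. They were found by gene symbol in a table of liver RNA-Seq counts, and 7 of the 8 had a row among the 30335 named genes. No row carried the symbol LIFR, so that member is represented only by 2 neighbouring rows described in the table as leukemia inhibitory factor (LIF) receptors, which were not counted as members. All 7 members passed the filter on low counts, as did 16210 genes in all. The genes were chosen by name from 1 cytokine family with measured counts of these livers already known, and which comparison prompted the choice is not recorded. CNTFR, for which the set is named, is therefore described by its levels and fold changes without a test.

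The 60 liver libraries came from pigs born to sows of mixed Landrace and Hampshire breeds, delivered by cesarean section shortly before term, given either sham surgery or ligation of the cystic and common bile ducts (BDL) on day 1, and sampled on day 14. Every pig carried a jugular catheter and received parenteral nutrition (PN) at first. ENT pigs were then moved to a milk replacer formula by orogastric tube, SLE pigs stayed on PN with a soy lipid emulsion (Intralipid, coded IL in the labels), and MLE pigs stayed on PN with a multicomponent lipid emulsion (SMOFlipid, coded SL). Sham surgery was done in 12 ENT, 10 SLE, and 9 MLE pigs and BDL in 10 ENT, 11 SLE, and 8 MLE pigs, counted by library. Replicates 9 and 10 of SLE-sham share a pig identifier in their labels and may be 1 animal, so that the 10 SLE-sham libraries may stand for 9 pigs.

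Cytokines of this family signal by bringing receptor chains together. Some ligands first bind a specific receptor, such as IL6R for IL-6 or CNTFR for ciliary neurotrophic factor, before IL6ST (gp130) is engaged. Signalling goes through IL6ST alone or paired with LIFR or OSMR. JAK1, bound to these chains, is activated and phosphorylates STAT3, which enters the nucleus. STAT3 induces genes of the acute-phase response in hepatocytes and also SOCS3, which binds the receptor and JAK and shuts signalling down. CNTFR has no intracellular part and is anchored to the membrane by a lipid, and it is best known from neurons and muscle.

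Libraries held 14469788 to 21374161 counts (median 17254606). Hepatocyte markers, including albumin, were abundant in all libraries, with summed levels given with the IL6R result. Expression is given in CPM, that is counts scaled to a common effective library size, as mean ± SD over pigs, and fold changes are on the log2 scale with the standard error (SE) of 1 edgeR quasi-likelihood model of all 60 libraries. A gene was called changed at a Benjamini-Hochberg adjusted p under 0.05 over the 16210 genes tested, and all tests were two-sided. ENT-sham replicate 2 and ENT-BDL replicate 1 were the closest of all 1770 pairs of libraries, with a chi-square per degree of freedom of 1.91 between their counts against 16.2 in the next closest pair. The summed CPM of 10 cholangiocyte (bile duct cell) markers was 648.7 in the library labelled ENT-sham replicate 2, against 94.6 to 222.7 in the other 11 ENT-sham libraries and 341.4 to 633.3 in the other 9 ENT-BDL libraries. Both libraries were kept under their labels, and without them BDL called 3384 genes in ENT pigs (2823 with them). The ENT values of IL6R, IL11, LIF, TIMP1, and the STAT3 target list are also given without both.

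Adjusted for gene length, STAT3 had the highest median level of the members at 38.8 CPM per kilobase, followed by JAK1 at 30.4, IL6ST at 28.3, and IL6R at 13.5. SOCS3 had a median of 7.72 CPM per kilobase, CNTFR 4.28, and OSMR 4.24. The shared chain and its kinase and STAT were thus more abundant than any of the specific receptors in these livers. In CPM, IL6ST lay at the 96.4th percentile of the tested genes and CNTFR at the 42.2nd. Each member's level in every pig is shown in the plot of expression by group.

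**Figure D1:**
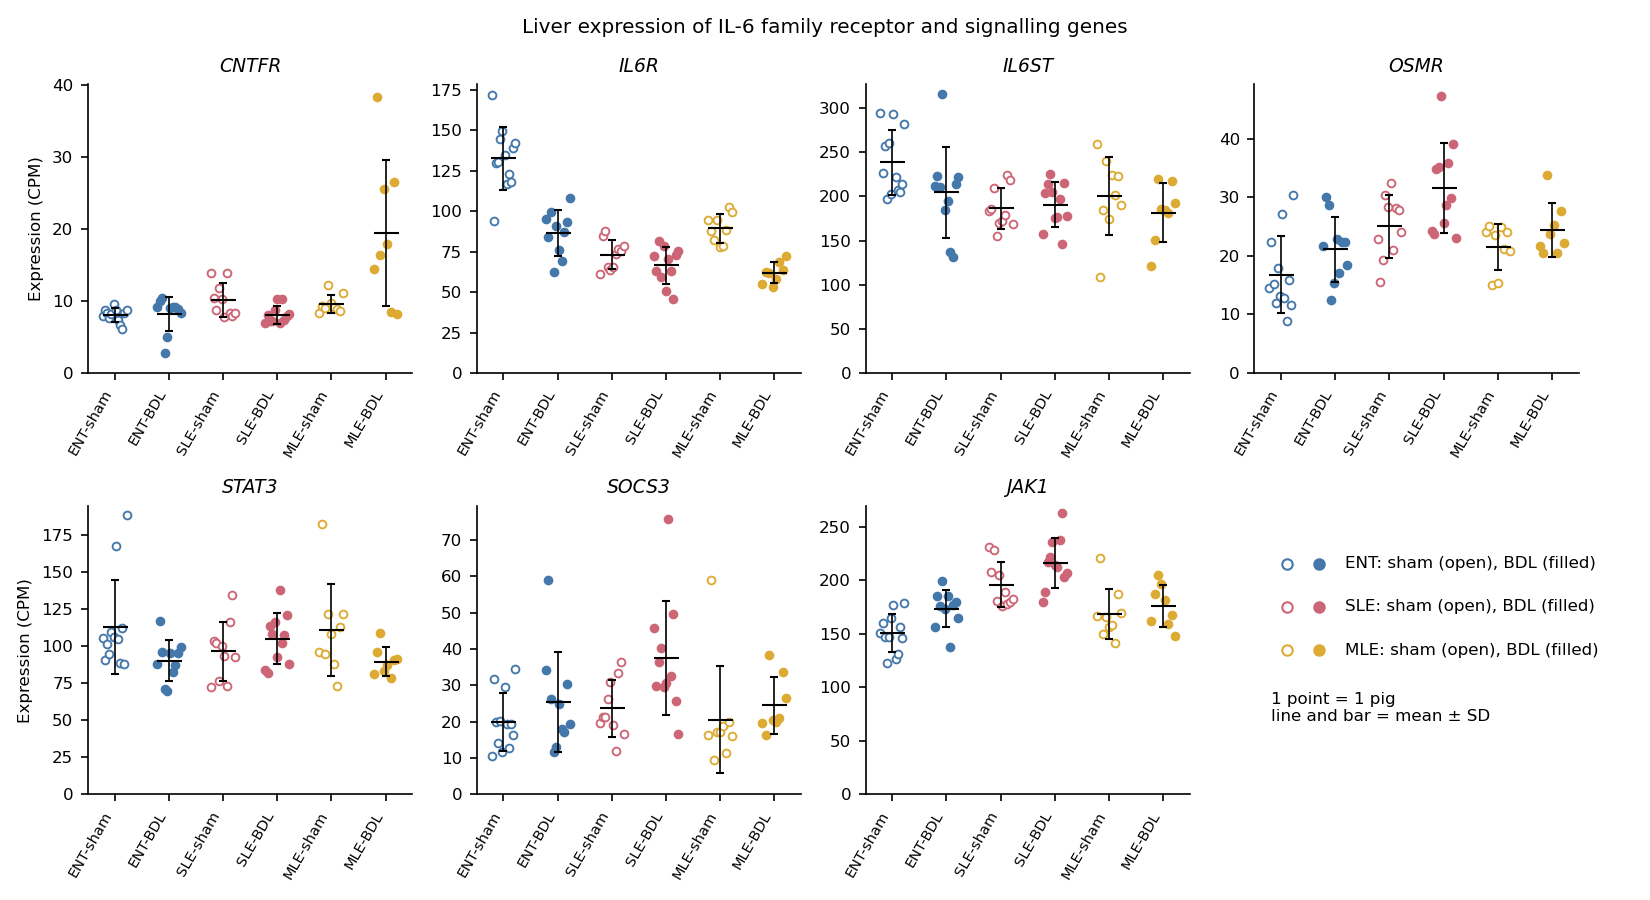
Expression of the 7 members in CPM (vertical axes, starting at 0) in each of the 6 groups, with 1 point per pig, open for sham and filled for BDL, and a line and bar for mean ± SD. CNTFR was spread from 8.21 to 38.2 CPM in MLE-BDL pigs, and IL6R in ENT-sham pigs lay above all SLE-sham pigs.

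CNTFR, the receptor for ciliary neurotrophic factor (gene 100524518, chromosome 10, 32211809 to 32251412, Sscrofa11.1), was high in MLE-BDL pigs. Its CPM in the 8 MLE-BDL pigs, by replicate, was 14.3, 38.2, 16.4, 25.5, 17.9, 8.46, 26.5, and 8.21. All of them except replicates 6 and 8 lay above every pig of the other 5 groups, where the highest value was 13.9 CPM in SLE-sham. In MLE-sham pigs CNTFR ranged from 8.37 to 12.3 CPM (median 9.16, mean 9.58 ± 1.27, n = 9), and in MLE-BDL pigs the mean was 19.4 ± 10.2 (n = 8), a log2 fold change of 1.02 (SE 0.19). The coefficient of variation was 52.3% in MLE-BDL pigs and 12.2% to 29.4% in the other groups, whereas the SE of the model rests on a spread shared by all groups.

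On the other diets the CNTFR means after BDL and sham surgery differed by less than the larger SD. In ENT pigs it averaged 8.02 ± 0.98 CPM after sham surgery (6.03 to 9.53, median 8.25, n = 12) and 8.19 ± 2.41 after BDL (2.76 to 10.4, median 9.08, n = 10), and the log2 fold change was 0.03 (SE 0.17). In SLE pigs it averaged 10.1 ± 2.37 after sham surgery (7.70 to 13.9, median 9.46, n = 10) and 8.09 ± 1.22 after BDL (6.89 to 10.3, median 7.85, n = 11), and the log2 fold change was -0.32 (SE 0.17). Of the 11 SLE-BDL pigs, 5 were below all SLE-sham pigs, and 4 of 10 SLE-sham pigs were above all SLE-BDL pigs. The lowest CNTFR level of all was the 2.76 CPM of ENT-BDL replicate 4, and replicate 5 of that group had 4.97. Among BDL pigs, MLE exceeded ENT by a log2 fold change of 1.24 (SE 0.18) and SLE by 1.26 (SE 0.18). Among sham pigs, the CNTFR log2 fold changes against ENT were 0.33 (SE 0.17) in SLE and 0.26 (SE 0.17) in MLE. In the order of the group means, only the step from MLE-BDL to SLE-sham, at 9.34 CPM, was several CPM wide, and it was still smaller than the SD of 10.2 CPM in MLE-BDL. All other steps between neighbours were 0.06 to 1.40 CPM and smaller than the SD.

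MLE pigs carried 4 of the 8 values of a 3-digit number in the pig identifier, whose meaning is not given in the sources used here, so CNTFR was also compared within these numbers. With the lowest of the 4 numbers, both MLE-BDL pigs (14.3 and 38.2 CPM) were higher than both MLE-sham pigs (8.37 and 9.23 CPM). With the next number, the 3 MLE-BDL pigs had 16.4 to 25.5 CPM against 8.98 to 12.3 in the 3 MLE-sham pigs. With the third number there was 1 high and 1 low MLE-BDL pig (26.5 and 8.46 CPM) beside MLE-sham pigs at 8.87 and 9.16 CPM, and with the highest number the single MLE-BDL pig, at 8.21 CPM, was below both of its MLE-sham counterparts. The mean was thus higher with BDL in 3 of 4 numbers, and the log2 fold change with the number in the model was 0.97. The fold change was smallest, at 0.81, when MLE-BDL replicate 2 was left out, and largest, at 1.13, without replicate 8. In SLE pigs CNTFR was lower with BDL in 4 of 4 numbers (log2 differences of -0.35 to -0.02). On ENT it was higher with BDL in 4 of 6. Among BDL pigs, MLE and SLE shared only 2 numbers, with MLE higher by 0.04 and 1.65. MLE and ENT shared 3, with MLE higher in 2 (-0.02 to 1.35), so these diet differences rest largely on pigs with different numbers.

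**Figure D2:**
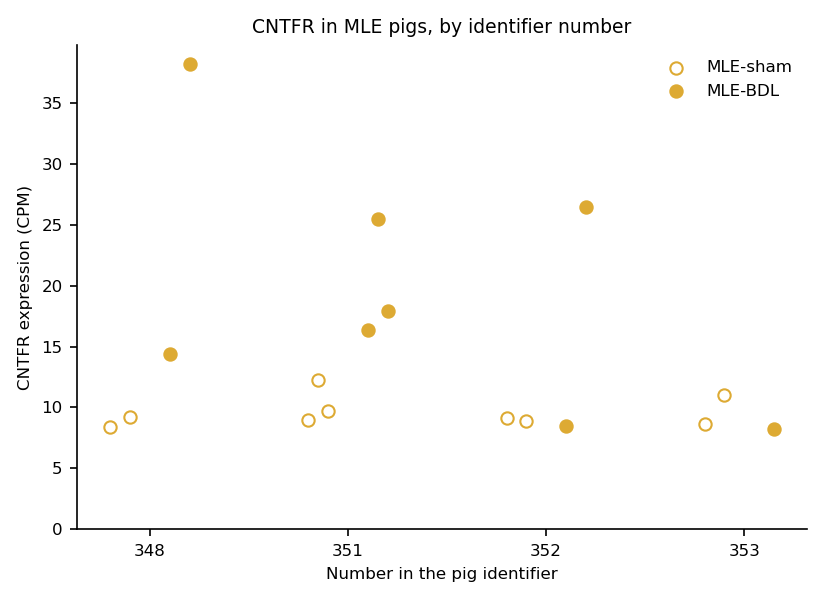
CNTFR expression in CPM (vertical axis) in MLE pigs by the number in the pig identifier (horizontal axis), with 1 point per pig, open for sham and filled for BDL. MLE-BDL pigs lay above MLE-sham pigs in the leftmost pair of numbers, on both sides of them in the next, and below them in the rightmost.

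Over the 60 libraries, the genes most like CNTFR in log2 CPM, of 12504 compared, were PLXNA2 (Pearson r = 0.67), TTYH3 (0.65), SIPA1L1 (0.62), POLR2A (0.61), and CTSL (0.61). PLXNA2 encodes a semaphorin receptor, POLR2A the largest subunit of RNA polymerase II, and CTSL the protease cathepsin L. After the group means were subtracted, PLXNA2 (0.67), SETD1A (0.61), TTYH3 (0.60), AHDC1 (0.57), and SMARCD1 (0.56) came first. All 8 of these genes had their lowest ENT-BDL level in ENT-BDL replicate 4, the library with the lowest CNTFR, which had 17.3 CPM of POLR2A against a group median of 84.3. All 8 also had their lowest MLE-BDL level in MLE-BDL replicate 6, one of the pair of low CNTFR libraries of that group. These 8 genes were chosen by their correlation with CNTFR over the same libraries. Low levels in the libraries low in CNTFR are thus partly built into the choice. Without the 2 libraries farthest from the CNTFR median (MLE-BDL replicate 2 and ENT-BDL replicate 4), r for PLXNA2 was 0.56 and 0.55 after subtraction. These are descriptions of libraries that share groups and identifier numbers. Among the members, r with CNTFR ran from -0.30 for IL6R to 0.24 for OSMR.

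IL6R, the receptor that binds IL-6 and that hepatocytes are known to carry (gene 399522, chromosome 4, 95322426 to 95381393, minus strand), was the member called in the most comparisons. It was highest in ENT-sham pigs at 132.8 ± 19.6 CPM (93.6 to 172.0, median 132.7, n = 12), and the lowest of these was the library labelled ENT-sham replicate 2. MLE-sham pigs had 89.5 ± 9.08 CPM (77.6 to 102.7, median 88.3, n = 9), ENT-BDL pigs 86.6 ± 14.0 (62.7 to 108.4, median 89.0, n = 10), and SLE-sham pigs 73.2 ± 9.002 (61.4 to 87.6, median 74.4, n = 10). SLE-BDL pigs had 66.6 ± 11.4 CPM (45.8 to 81.6, median 70.3, n = 11) and MLE-BDL pigs 61.9 ± 6.37 (53.4 to 72.1, median 62.3, n = 8). The step from ENT-sham to MLE-sham, 43.3 CPM, exceeded the SD of either group, and all later steps between neighbours were within 1 SD.

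After BDL, IL6R fell by 0.62 on the log2 scale in ENT pigs (SE 0.09, edgeR adjusted p = 1.14e-06) and by 0.53 in MLE pigs (SE 0.10, adjusted p = 0.000134). Every MLE-BDL pig was below every MLE-sham pig, a separation that 2.94% of the tested genes showed in either direction. In ENT pigs 7 of 10 BDL pigs were below all sham pigs, and 11 of 12 sham pigs were above all BDL pigs. With both closest ENT libraries left out, the ENT fold change was -0.68. In SLE pigs, in contrast, the fold change was -0.14 (SE 0.09, 95% interval -0.31 to 0.04, adjusted p = 0.45). The difference of the BDL responses between SLE and ENT pigs was itself called, at 0.48 (SE 0.13, adjusted p = 0.0249), where 2.33% of all genes were called. It was not called with the identifier number in the model (0.39, adjusted p = 0.0664), with only the 4 groups concerned (0.48, adjusted p = 0.0608), or with a replicate block (0.45, adjusted p = 0.055). Within the identifier numbers, BDL pigs had less IL6R than sham pigs in 6 of 6 numbers on ENT, 4 of 4 on SLE, and 4 of 4 on MLE.

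PN went with less IL6R than enteral feeding with and without BDL. In sham pigs, SLE was below ENT, at a log2 fold change of -0.86 (SE 0.09, adjusted p = 4.35e-11), with no overlap between the groups, as in 1.69% of genes. MLE-sham was also below ENT-sham, at -0.57 (SE 0.09, adjusted p = 3.98e-06), with 5 of 9 pigs below all ENT-sham pigs. In BDL pigs the differences against ENT were -0.38 (SE 0.09, adjusted p = 0.00156) for SLE and -0.48 (SE 0.10, adjusted p = 0.000269) for MLE. Between the emulsions, MLE-sham and SLE-sham differed by 0.29 (SE 0.09, adjusted p = 0.134) and MLE-BDL and SLE-BDL by -0.11 (SE 0.10, 95% interval -0.29 to 0.08, adjusted p = 0.69). These comparisons share groups, so the falls of IL6R in them are not independent.

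Some hepatocyte markers were also lower after BDL in ENT and MLE pigs, where IL6R fell. Of the 11 rows of 10 hepatocyte marker genes, 4 fell and 1 rose in ENT pigs. In MLE pigs 7 fell and none rose, and none was called in SLE pigs. Of all genes, 8.53% fell and 8.89% rose in ENT, 6.58% and 7.85% in MLE, and 1.57% and 2.97% in SLE pigs. The median log2 fold change of the hepatocyte rows was -0.15 in ENT, -0.07 in SLE, and -0.55 in MLE pigs. Among these rows, and picked after their values were seen, ALB (albumin) had a log2 fold change of -0.83 in ENT and -0.77 in MLE pigs. ASGR1, a receptor of the hepatocyte surface, had -0.50 and -0.46, and HNF4A, a hepatocyte transcription factor, -0.07 and -0.04. The median summed level of the list was 148100 CPM in ENT-sham (88780 to 176900) and 121200 in ENT-BDL pigs (89210 to 157800), and it was 161900 CPM in MLE-sham (143100 to 207600) against 115200 in MLE-BDL pigs (100000 to 122000). In SLE pigs the medians were 142400 CPM after sham surgery (122900 to 182300) and 142800 after BDL (103700 to 153000), and in every group the median number of marker rows at 0 was 0. In bulk liver, fewer cells of a type and less RNA per cell cannot be told apart, and the part of hepatocyte content in the IL6R result was not tested. Between the diets in sham pigs there were 3 rows lower and 1 higher in SLE and 2 lower and 3 higher in MLE against ENT. Of all genes, 27.5% and 21.1% were called in these comparisons in either direction.

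OSMR, the specific receptor chain for oncostatin M, which is known from stromal cells as well as hepatocytes (gene 100519398, chromosome 16, 24041312 to 24101842), was lowest in ENT-sham pigs, where IL6R was highest. ENT-sham pigs had the least at 16.8 ± 6.58 CPM (8.82 to 30.3, median 14.9, n = 12) and SLE-BDL pigs the most at 31.5 ± 7.64 (23.0 to 47.3, median 29.8, n = 11). In between were ENT-BDL with 21.2 ± 5.54 (n = 10), MLE-sham with 21.6 ± 3.91 (n = 9), MLE-BDL with 24.4 ± 4.56 (n = 8), and SLE-sham with 25 ± 5.36 (n = 10), and no step between neighbours exceeded the SD. SLE was above ENT by a log2 fold change of 0.57 both in sham pigs (SE 0.16, adjusted p = 0.00381) and in BDL pigs (SE 0.16, adjusted p = 0.00728). Among BDL pigs, 5 of 11 SLE pigs were above all ENT pigs, and 8 of 10 ENT pigs were below all SLE pigs. Neither MLE comparison with ENT was called (0.36 in sham pigs, adjusted p = 0.103, and 0.20 in BDL pigs, adjusted p = 0.461). BDL fold changes were 0.33 in ENT, 0.33 in SLE, and 0.18 in MLE pigs, with adjusted p of 0.134, 0.244, and 0.562. The 2 loci on the opposite strand of OSMR had medians of 0.89 and 0.38 CPM. Whether counting used strand is not given in the sources used here.

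The 2 rows described as LIF receptors lie side by side on chromosome 16, not far from OSMR. LOC102167255 (23627700 to 23672724, minus strand) had a median of 91.3 CPM and LOC397451 (23685565 to 23760062, minus strand) one of 4.53 CPM. LOC102167255 was lower in SLE-sham than in ENT-sham pigs, at 78.8 ± 10.2 against 105.8 ± 19.1 CPM (log2 fold change -0.42, SE 0.12, adjusted p = 0.00642), and in this comparison LOC397451 was at -0.41 (SE 0.25, adjusted p = 0.229). No other comparison of diets or surgery was called for either row. Reads could be split between such similar neighbouring loci, so both are uncertain.

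IL6ST, the chain shared by these receptors (gene 100037294, chromosome 16, 35101304 to 35151832, minus strand), was called in 1 comparison. Its group means ran from 181.6 ± 33.1 CPM in MLE-BDL (120.6 to 220.1, n = 8) to 238.4 ± 37.0 in ENT-sham (197.0 to 293.9, n = 12), and every step between neighbours was within the SD. After BDL its log2 fold change was -0.22 in ENT pigs (95% interval -0.44 to 0.00, adjusted p = 0.179), 0.03 in SLE pigs (-0.20 to 0.26, adjusted p = 0.932), and -0.14 in MLE pigs (-0.40 to 0.11, adjusted p = 0.506). The called difference was SLE-sham below ENT-sham, at -0.35 (SE 0.11, adjusted p = 0.0153), with 7 of 10 SLE-sham pigs below all ENT-sham pigs. With the identifier number in the model this was -0.21 (adjusted p = 0.162).

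JAK1, the kinase bound to IL6ST (gene 397202, chromosome 6, 147320288 to 147567188), was higher on SLE than on ENT. SLE-BDL pigs had 216.2 ± 23.2 CPM (179.3 to 262.3, median 214.2, n = 11) and SLE-sham pigs 195.8 ± 21.01 (176.2 to 231.2, median 185.9, n = 10), against 173.4 ± 17.2 in ENT-BDL (137.7 to 199.2, median 176.6, n = 10) and 150.8 ± 18.1 in ENT-sham pigs (122.8 to 178.5, median 149.1, n = 12). MLE pigs had 168.3 ± 23.5 CPM after sham surgery (n = 9) and 175.8 ± 19.9 after BDL (n = 8). SLE exceeded ENT by 0.38 on the log2 scale in sham pigs (SE 0.07, adjusted p = 5.06e-05) and by 0.32 in BDL pigs (SE 0.07, adjusted p = 0.00134), and within identifier numbers in 4 of 4 and 5 of 5. MLE-BDL was below SLE-BDL, at -0.30 (SE 0.08, adjusted p = 0.047), a call lost under 4 other settings of the model and when any of 17 libraries was left out. The rise after BDL in ENT pigs, 0.20 (SE 0.07, adjusted p = 0.0456), was also near the threshold and was lost when any of 31 libraries was left out. It was not called with the identifier number in the model or by DESeq2. Within the identifier numbers, JAK1 was higher after BDL in 4 of 6 on ENT. RAVER2, which overlaps JAK1 on the opposite strand, had a median of 0.84 CPM.

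STAT3, the transcription factor downstream (gene 733648, chromosome 12, 20407316 to 20471091), was not called in any comparison but was near the threshold after BDL in ENT pigs. Its group means ran from 89.8 ± 9.71 CPM in MLE-BDL (78.6 to 109.0, n = 8) to 113.3 ± 31.8 in ENT-sham (88.2 to 188.8, n = 12). BDL fold changes were -0.33 in ENT pigs (SE 0.12, adjusted p = 0.0551), 0.12 in SLE pigs (SE 0.12, adjusted p = 0.665), and -0.31 in MLE pigs (SE 0.14, adjusted p = 0.132). The ENT value of STAT3 was called without both closest ENT libraries (-0.35, adjusted p = 0.0429), with the identifier number in the model (-0.34, adjusted p = 0.0446), by DESeq2 (-0.33, adjusted p = 0.0483), and when any of 8 single libraries was left out. The difference between the responses of SLE and ENT pigs was 0.45 (SE 0.17, adjusted p = 0.176). These are levels of STAT3 mRNA, and phosphorylation was not measured here.

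SOCS3, the inhibitor that STAT3 induces (gene 493186, chromosome 12, 3643832 to 3647015), varied widely between pigs of a group, with coefficients of variation of 31.6% to 71.7%. SLE-BDL pigs had 37.5 ± 15.7 CPM (16.7 to 75.8, median 32.5, n = 11), against 23.7 ± 7.85 in SLE-sham pigs (11.9 to 36.5, median 21.3, n = 10). ENT pigs averaged 20.03 ± 7.97 CPM after sham surgery and 25.5 ± 13.8 after BDL, and MLE pigs 20.6 ± 14.8 and 24.5 ± 7.74. The BDL fold change in SLE pigs was 0.66 (SE 0.26, adjusted p = 0.14), with 4 of 11 BDL pigs above all sham pigs, and SOCS3 was not called in any comparison. Among BDL pigs SOCS3 was at 0.56 in SLE against ENT (95% interval 0.04 to 1.07, adjusted p = 0.128), and this was called with the identifier number in the model (0.79, adjusted p = 0.038), SLE being higher in 5 of 5 numbers. The BDL fold change in MLE pigs was 0.25 (SE 0.29), and 0.62 without MLE-sham replicate 2, which was also not called.

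Counted over the 6 members other than CNTFR, BDL changed 2 in ENT pigs (IL6R and JAK1), 0 in SLE pigs, and 1 in MLE pigs (IL6R). Of all tested genes, the share called was 17.4% on ENT (8.89% up and 8.53% down), 4.54% on SLE (2.97% up and 1.57% down), and 14.4% on MLE (7.85% up and 6.58% down). At an unadjusted p under 0.05 there were 4, 2, and 2 members, and DESeq2 called 2 (IL6R and STAT3), 0, and 1. In sham pigs, 4 members differed between SLE and ENT (27.5% of all genes), 1 between MLE and ENT (21.1%), and 0 between MLE and SLE (0.999%), the last with 2 members at an unadjusted p under 0.05 and 0 by DESeq2. In BDL pigs the counts were 3 for SLE against ENT (19.6%), 1 for MLE against ENT (16.8%), and 1 for MLE against SLE (0.907%). The difference in BDL response was called for 1 member between SLE and ENT (IL6R, beside 2.33% of all genes, and 0 members with either block or on the groups compared), and for 0 between MLE and ENT (0.0617% of all genes) and 0 between MLE and SLE (0.265%), with 0 and 2 members at an unadjusted p under 0.05 and 0 by DESeq2 in both. The smallest of these shares were unstable. When 1 library was left out, the genes called numbered 53 to 222 for MLE against SLE in BDL pigs (147 with all), 0 to 47 for the difference in response between MLE and ENT (10 with all), and 22 to 96 for that between MLE and SLE (43 with all). No called member changed more than 2-fold in any comparison, and the median of all genes stayed within 0.01 of 0 in each BDL comparison.

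**Figure D3:**
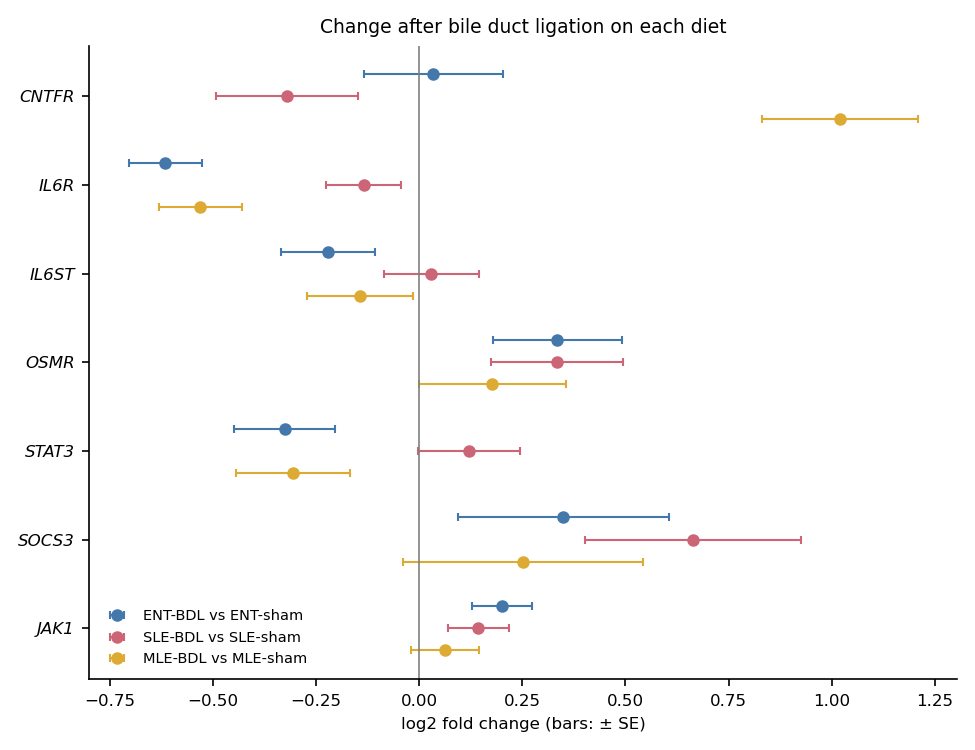
Log2 fold change of each member after BDL (horizontal axis, points with bars of ± SE) in ENT, SLE, and MLE pigs. CNTFR was at 1.02 in MLE pigs and near 0 or below on the other diets, and IL6R was at -0.62 in ENT and -0.53 in MLE pigs but -0.14 in SLE pigs.

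**Figure D4:**
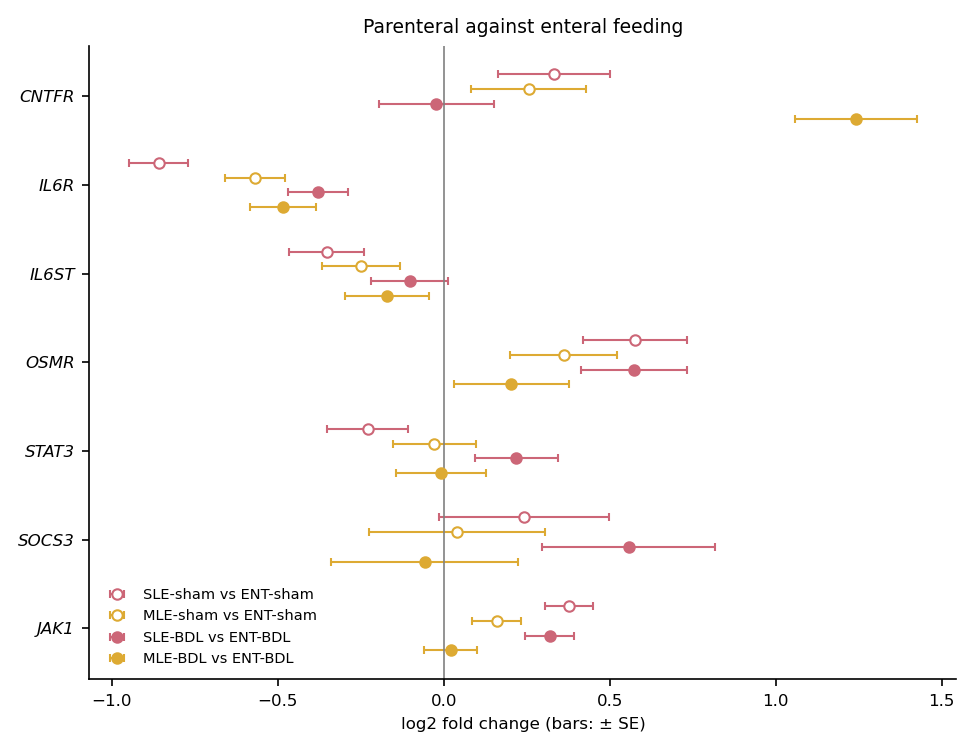
Log2 fold change of each member on PN against enteral feeding (horizontal axis, points with bars of ± SE), open for sham and filled for BDL pigs. IL6R lay below 0 in all 4 comparisons, and CNTFR at 1.24 for MLE-BDL against ENT-BDL.

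Most ligands of these receptors other than CLCF1 and EBI3 had few counts in these livers, and LIF was called higher after BDL on each diet. Of 10 ligand genes listed, 9 had a row and 7 passed the filter. IL6 itself did not pass, with at most 17 counts (0.85 CPM) in any library and group means of 0.18 to 0.42 CPM, and neither did IL31. IL11 and OSM passed it through the BDL pigs, so they are described by levels and fold changes, and no call of the main fit is given for them. LIF is a low gene too, for which the fold changes depend on few counts.

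LIF, the ligand of the LIF receptor, averaged 0.47 ± 0.16 CPM in MLE-sham (0.20 to 0.69, n = 9) and 2.57 ± 0.97 in MLE-BDL pigs (1.78 to 4.23, n = 8), without overlap, and the log2 fold change was 2.42 (SE 0.50, adjusted p = 0.00041). In SLE pigs LIF went from 0.70 ± 0.25 to 1.93 ± 1.23 CPM (1.45, SE 0.44, adjusted p = 0.0422, lost when any of 14 libraries was left out), and in ENT pigs from 0.77 ± 1.34 to 1.92 ± 1.35 CPM (1.27, SE 0.41, adjusted p = 0.0251). The ENT-sham mean of LIF held 4.99 CPM in the library labelled ENT-sham replicate 2, and the fold change was 2.29 without it and 2.03 without both closest ENT libraries. The ENT call of LIF was lost without ENT-BDL replicate 1 (1.00, adjusted p = 0.0883) or 2 (1.11, adjusted p = 0.0646) and with only the groups compared (adjusted p = 0.118), and its SLE call was lost without the filter on low counts (adjusted p = 0.0593).

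IL11, a cytokine known from fibroblasts and scarring tissue, passed the filter on low counts through the BDL pigs, with 10 or more counts in 14 of 29 BDL and 1 of 31 sham libraries, the latter being the library labelled ENT-sham replicate 2. Its entry into the test was thus decided by the groups in which it was high. It was at 0 counts in 6 of 12 ENT-sham, 3 of 10 SLE-sham, and 3 of 9 MLE-sham libraries and in no BDL library. Its mean was 0.11 ± 0.22 CPM in ENT-sham and 0.56 ± 0.82 in ENT-BDL, 0.19 ± 0.17 in SLE-sham and 1.32 ± 1.33 in SLE-BDL, and 0.08 ± 0.07 in MLE-sham and 1.78 ± 1.94 in MLE-BDL. Log2 fold changes of IL11 were 2.18 (SE 0.71), 2.75 (SE 0.70), and 4.42 (SE 0.86) in ENT, SLE, and MLE pigs. In the fit without a filter on low counts, IL11 had adjusted p of 0.0366, 0.0221, and 0.000331, and on the groups compared alone it could not be fitted. In MLE-sham no library held more than 3 counts of IL11, so that the last value depends on how such counts are modelled. In ENT pigs the log2 fold change was 1.39 without ENT-BDL replicate 2, which held 62 counts, and 3.12 without both closest ENT libraries.

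CLCF1, a ligand that acts through CNTFR, was at 5.53 to 9.60 CPM on average, with log2 fold changes of 0.33, 0.46, and 0.51 in ENT, SLE, and MLE pigs and adjusted p of 0.267, 0.204, and 0.122. CNTF, another ligand of CNTFR, was at 0.69 to 0.95 CPM on average, with fold changes of 0.17, -0.14, and -0.13, none of them called. OSM, which binds OSMR, also passed the filter through the BDL pigs, with 10 or more counts in 7 of 29 BDL and 1 of 31 sham libraries, and had log2 fold changes of 1.40, 1.59, and 1.32. SLE-BDL replicate 9 held 97 counts of OSM, against 5 to 14 in the other SLE-BDL libraries, and without it OSM did not pass the filter. The SLE value thus depends on this library, the OSM medians being 0.40 CPM in SLE-sham and 0.53 in SLE-BDL pigs. EBI3 and IL27, the subunits of IL-27, had fold changes of -0.47, -0.03, and 0.04 (EBI3) and -0.15, -0.56, and -0.12 (IL27) on the 3 diets, none of them called. EBI3 was near the threshold in ENT pigs (adjusted p = 0.0513) and was called lower there with RLE scaling (0.0462), on the groups compared (0.0365), without both closest ENT libraries (0.0461), and by DESeq2 (0.039).

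**Figure D5:**
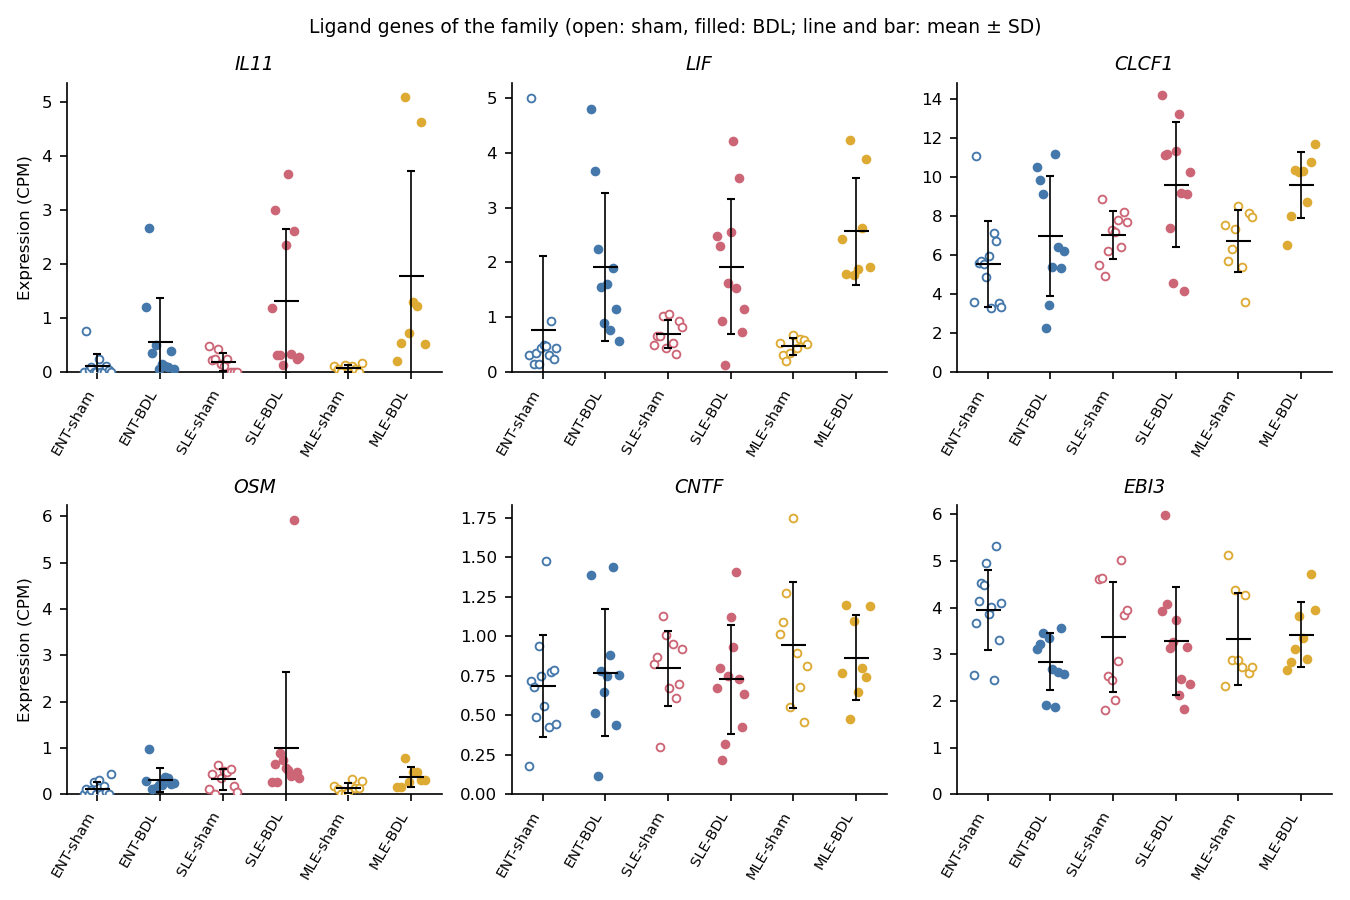
Expression in CPM (vertical axes, starting at 0) of 6 ligand genes in each group, with 1 point per pig, open for sham and filled for BDL, and a line and bar for mean ± SD, the lower bars being clipped at 0. LIF in MLE-BDL pigs (1.78 to 4.23 CPM) lay above all MLE-sham pigs, and the highest LIF level in ENT-sham was 4.99 CPM.

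Some markers of bile duct and scar-forming cells were also higher after BDL. Of 10 cholangiocyte markers, 6 rose in ENT, 1 in SLE, and 7 in MLE pigs. Of 10 markers of stellate cells and myofibroblasts, 2, 2, and 3 rose and 1, 0, and 1 fell. For all lists here, the share of all genes called higher was 8.89% in ENT, 2.97% in SLE, and 7.85% in MLE pigs. The share called lower was 8.53%, 1.57%, and 6.58%. The summed level of the cholangiocyte list was 94.6 to 648.7 CPM in ENT-sham and 341.4 to 633.3 in ENT-BDL, 245.6 to 434.2 in SLE-sham and 319.2 to 533.6 in SLE-BDL, and it was 210.1 to 286.8 in MLE-sham against 332.8 to 533.5 in MLE-BDL pigs. The sum of the stellate cell list overlapped between sham and BDL pigs on each diet, at 1248 to 4116 and 1423 to 4129 CPM on ENT, 1325 to 3897 and 1500 to 8096 on SLE, and 1256 to 3196 and 2269 to 5955 on MLE. A list of 10 muscle and peripheral nerve genes, of which 6 were tested, had 1 higher and 1 lower in ENT and in MLE pigs and 1 higher in SLE pigs, with a sum of 22.1 to 47.6 CPM in MLE-sham and 30 to 83.8 in MLE-BDL. After sham surgery and BDL the sums were 28.5 to 110.7 and 74.2 to 168.5 CPM in ENT pigs and 20.9 to 55.6 and 47.1 to 81.8 CPM in SLE pigs. Of its rows 1 was at 0 in every library, and DES is shared with the stellate cell list. Of 10 Kupffer cell and macrophage markers, 1 rose and 3 fell in ENT, 1 rose in SLE, and 1 rose and 4 fell in MLE pigs. In the lists of endothelial, T and NK, B and plasma, neutrophil, and erythroid cells, 0 to 2 genes were called in any BDL comparison. The part of these cell types in the CNTFR and ligand values was not tested.

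Of 10 other receptor genes and sheddases, 1 rose and 2 fell in ENT pigs and none changed in SLE pigs. In MLE pigs 1 rose and 4 fell. Of all genes, 17.4% were called in either direction in ENT, 4.54% in SLE, and 14.4% in MLE pigs. GHR, the growth hormone receptor, fell by 0.54 in ENT (SE 0.14, adjusted p = 0.00383) and by 0.70 in MLE pigs (SE 0.16, adjusted p = 0.00125), and IL22RA1, the interleukin 22 receptor, fell by 0.48 (SE 0.14, adjusted p = 0.0131) and 0.45 (SE 0.16, adjusted p = 0.0467, lost when any of 12 libraries was left out). Of 12 other kinases and STATs, 1 rose in ENT and 1 in SLE, in both cases STAT6 (0.23 and 0.25, adjusted p = 0.023 and 0.0464, lost when any of 2 and of 36 libraries was left out), and 2 fell in MLE pigs. Of 17 inhibitor genes, PTPN11, a tyrosine phosphatase of the pathway, rose by 0.25 in ENT (adjusted p = 0.0071) and by 0.27 in MLE pigs (adjusted p = 0.0122). In all, 1 inhibitor rose and 1 fell in ENT, 1 rose in SLE, and 2 rose and 1 fell in MLE pigs. The counts of the kinase and inhibitor lists were below the share of all genes called in ENT pigs and near it in MLE pigs.

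Of 23 tested genes that STAT3 is known to induce, 5 rose and 1 fell in ENT, 3 rose in SLE, and 2 rose and 1 fell in MLE pigs, beside 17.4%, 4.54%, and 14.4% of all genes called in either direction. The list medians were 0.11, 0.26, and 0.16. TIMP1, an inhibitor of matrix proteases, was called on all diets at 1.41, 2.23, and 3.41 (adjusted p = 0.0247, 0.00385, and 1.7e-05). Its ENT value was 1.93 without both closest ENT libraries, and 0.90 and not called without ENT-BDL replicate 2 (adjusted p = 0.17). STEAP4, a metalloreductase, rose by 1.35 in ENT pigs (adjusted p = 0.00189), together with JUNB (0.93, adjusted p = 0.00823, not called without ENT-BDL replicate 2), whereas the repressor BCL6 had a log2 fold change of -0.67 (adjusted p = 0.000255). NNMT, which methylates nicotinamide, rose by 1.27 (adjusted p = 0.0128) and the survival factor MCL1 by 0.43 (adjusted p = 0.0429, lost when any of 18 libraries was left out) in SLE pigs. In MLE pigs BCL2L1, another survival factor, rose by 0.35 (adjusted p = 0.0104) and BATF was at -1.06 (adjusted p = 0.00419). Without MLE-sham replicate 2, which also had the highest SOCS3 and STAT3 of its group, 7 of these genes were called in MLE pigs, and without both closest ENT libraries 8 were called in ENT pigs.

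The 32 rows of acute-phase protein genes hold 4 genes known to fall in an acute-phase response (ALB, TTR, AHSG, and APOA1), counted apart here after the values were seen. Of the other 28 rows, 12 fell and 1 rose in ENT, 2 rose and none fell in SLE, and 15 fell and none rose in MLE pigs. Of the 4, there were 2 lower in ENT, 0 in SLE, and 4 in MLE pigs, and none was higher. The share of all genes called lower was 8.53% in ENT, 1.57% in SLE, and 6.58% in MLE pigs. Of all these genes 5 are also hepatocyte markers (SERPINA1, ALB, TTR, AHSG, and APOA1). The table holds a pair of rows named CRP, the C-reactive protein gene, between which reads could be split. Gene 100620468 had log2 fold changes of -1.07, 1.01, and -0.57 in ENT, SLE, and MLE pigs (adjusted p = 0.0123, 0.0527, and 0.294), and gene 396842 had values of -3.27, 1.86, and -0.22 (adjusted p = 4.28e-06, 0.019, and 0.835). In SLE-BDL pigs the level of the latter had a median of 13.9 CPM and a maximum of 131.0, and without SLE-BDL replicate 7 the SLE value was 1.05 (adjusted p = 0.155) and no acute-phase row was called on SLE. HP (haptoglobin, a scavenger of hemoglobin) was at -0.99 in ENT (adjusted p = 0.00834), -1.38 in MLE (adjusted p = 0.00146), and 0.94 in SLE (adjusted p = 0.0399, and 0.64 without SLE-BDL replicate 7, not called), and the complement regulator C4BPA, at 1 of its pair of rows (gene 100520761), fell by 1.82 in both ENT and MLE pigs, the other row not being called. APCS fell by 1.67 and SAA3 rose by 1.55 in ENT pigs, the latter call being lost when any of 38 libraries was left out. HRG fell in MLE pigs (-1.66, adjusted p = 5.61e-06). SAA2 was called lower there at -2.97 (adjusted p = 0.0317), with a median of 12.4 CPM and a maximum of 403.2 in MLE-sham against a mean of 7.59 in MLE-BDL pigs, and without MLE-sham replicate 2 it was at -1.13 (adjusted p = 0.42).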

How the data were processed

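Total liver RNA was made into poly-A libraries and sequenced in paired reads. The authors trimmed the reads and deposited 1 table of raw read counts per gene. The submitters' processing notes name HISAT2 (2.0.5), StringTie (1.3.3), featureCounts (1.5.0-p3), and the Sscrofa11.1 build, without saying whether counting used strand. The 24 unnamed features (0.008% to 0.041% of counts per library) were left out. Columns of sample values that belong to no sample numbered 0.

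Groups came from the sample labels. Counts were analysed with edgeR (4.0.16) in R (4.3.3), with TMM scaling, filterByExpr, robust quasi-likelihood fits with 1 mean per group over all 60 libraries, and Benjamini-Hochberg adjustment over all tested genes. The model was tested on simulated data. CPM used TMM library sizes, and log2 CPM a prior count of 2. The study's methods name DESeq2, which was run here (1.42.0) as an alternative. The other alternatives were RLE scaling, no filter, a replicate block, a block for the number in the pig identifier, fits on the groups compared, leaving out the closest pair of ENT libraries, and leaving out each library. The p-values measure the spread between pigs, and the main fit treated the 60 libraries as independent. Deviations from the group mean were more alike between pigs of different groups that shared an identifier number. Their mean r was 0.133, against -0.018 with other numbers. The main fit does not account for this, or for the SLE-sham libraries that may come from 1 animal.

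The members and gene lists were chosen with earlier results of these data known. Named genes were the members, all ligands listed (1 further ligand gene is not reported here), genes of the receptor, kinase, STAT, and inhibitor lists called in at least 2 of 3 BDL comparisons, the 3 highest and 3 lowest called STAT3 target and acute-phase genes per BDL comparison, and the 5 genes most correlated with CNTFR before and after group means were subtracted. A gene named in 1 comparison may be given in another.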

Additional observations from a re-analysis of the deposited data

Results flagged for a closer look

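Among the 28 groups of at most 10 pigs examined (each of the 7 members in 4 groups), 4 values stood far from the rest of their group by Dixon's criterion, which chance meets in about 1 of 20 groups. MLE-sham replicate 2 was one for both SOCS3 and STAT3. It had 58.88 CPM of SOCS3 against 9.51 to 19.9 in the remaining pigs of its group, and 182.9 CPM of STAT3 against 72.9 to 121.7. ENT-BDL replicate 2 also had 58.88 CPM of SOCS3, against 11.8 to 34.3 in its group, from 1368 counts where MLE-sham replicate 2 had 918. ENT-BDL replicate 4, the library with the least CNTFR, had 316.3 CPM of IL6ST against 131.4 to 223.2 in its group.

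The response of IL6R to BDL differed between SLE and ENT pigs by 0.4803 on the log2 scale (edgeR interaction, adjusted p = 0.0249), with IL6R lower after BDL by 0.62 in ENT pigs and a fold change of -0.14 in SLE pigs. The difference was not called with the identifier number in the model (adjusted p = 0.0664), with a replicate block (0.055), or on the groups compared (0.0608).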

How the results depend on the processing

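All CNTFR fold changes moved by less than the spread between pigs under every alternative, and no fold change of a member that was called reversed. Of the 6 other members, the number called after BDL in ENT pigs (2) was 1 with RLE scaling, without a filter, and with only the groups compared. It was 3 without both closest ENT libraries, and 2 with the identifier block and by DESeq2, with STAT3 in place of JAK1. Leaving out 1 library gave 1 to 3. For MLE against SLE in BDL pigs the call of JAK1 was lost (0 members) without a filter, with either block, and with only the groups compared, and in some fits without 1 library (0 to 1). The difference in BDL response between SLE and ENT pigs was lost (0 members) with the replicate block, the identifier block, and only the groups compared, and without SLE-BDL replicate 5 (0 to 1). With the identifier block, SLE against ENT had 3 members in sham pigs (4 otherwise) and 4 in BDL pigs (3 otherwise), the latter by SOCS3 (0.79, adjusted p = 0.038). For the named genes other than members, 7 results were weaker and 2 stronger with the identifier block. On the groups compared, 8 were weaker and 6 stronger. Not all of these are named above. MLE against ENT in sham pigs had 1 to 2 members and SLE against ENT in BDL pigs 3 to 4 when 1 library was left out. Leaving out SLE-sham replicate 9 or 10 left the 4 and 0 members called in the sham comparisons with SLE as they were. Over all genes, the number called for MLE against SLE in BDL pigs (147) was 16 with the identifier block, 19 on the groups compared, and 281 by DESeq2. For the difference in BDL response it was 10 between MLE and ENT (11 to 76 under the other settings), 43 between MLE and SLE (30 to 124), and 377 between SLE and ENT (241 to 725). The causes were not tested.

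Same-numbered replicates did not deviate together (r = -0.231 to 0.381, median -0.017, over 137 pairs), so the replicate number was not taken as a pairing. With it as a block the counts were 2, 0, and 1 after BDL in ENT, SLE, and MLE pigs. Pigs of other groups with the same identifier number had a mean r of 0.133 (177 pairs), others -0.018 (1318 pairs). IL11 could not be fitted on the groups compared alone. Counts of 0 to 3 in MLE-sham libraries limit its fold change there.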
